A study of Homo sapiens with 56 samples.

Results

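MY-LA, a line established from mycosis fungoides, was set against 3 other lines of cutaneous T cell lymphoma (CTCL), all untreated and harvested at day 8 of culture. The members were chosen by the labels alone: 4 arrays of MY-LA, 4 of HuT-102, 4 of MJ and 4 of HuT-78, which made 16 of the 56 arrays of the series. The study cultured these lines with or without cobomarsen, an oligonucleotide inhibitor of miR-155, for 8 days and, in MY-LA, HuT-102 and MJ, also for 4 days, and measured total RNA on Affymetrix arrays with biotin-labelled cRNA, 1 array per sample. None of the 16 arrays was of cells given the oligonucleotide. Each difference was taken as MY-LA minus the mean of the 3 other group means, each line with the same weight, and also as MY-LA minus each line. At day 4 untreated arrays of MY-LA, HuT-102 and MJ were used as a second set of 4 arrays per line.

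Mycosis fungoides and Sézary syndrome are lymphomas of mature T cells that home to the skin, usually of the CD4+ helper type. Such cells often keep the T cell receptor while losing other surface molecules of normal T cells, and many make cytokines of type 2 helper cells. HuT-78 was established from Sézary syndrome, and HuT-102 and MJ are long-used CTCL lines that carry the retrovirus HTLV-1. Each line is the cells of 1 person, so that a difference between lines is one between 4 cultures of cells and not between kinds of disease. The numbers in the sample titles run together for HuT-102 and MJ and, apart from those, for MY-LA and HuT-78. Line and title-number series cannot be told apart over the 4 lines, but MY-LA against HuT-78 is a comparison within 1 series and is given, as signals or a difference, for each gene shown with day 8 values.

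Arrays of 1 line were alike, with correlations of 0.968 or more over all probe sets on the log2 scale, against 0.894 between the means of MY-LA and HuT-102, 0.913 between MY-LA and MJ and 0.882 between MY-LA and HuT-78. The median signal was 61.6 to 69.3 in MY-LA arrays, against 75.3 to 78.3 in HuT-102, 79.2 to 83.2 in MJ and 62.8 to 71.1 in HuT-78. The ratio of 3′ to 5′ probe sets of GAPDH, a sign of RNA quality, lay between 0.890 and 0.961 in all 16 arrays. A gene was tested where its mean reached a signal of 72.1, the median of all values, in 1 or more of the lines, and 13667 of 19775 genes did. Of these, 9435 reached it in all 4 lines, 326 in MY-LA only and 520 in each other line but not in MY-LA. A signal under 72.1 is called near background here, and for a gene near background in a line, this text gives signals and no log2 difference, which would depend on the value of 16 added before the logarithm. Medians over a gene list do include such members.

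The 4 lines differed over most of the transcriptome. Against the mean of the other 3 lines, 4441 genes were higher in MY-LA (32.5% of those tested) and 5196 were lower (38.0%), at a limma p under 0.05 after Benjamini-Hochberg adjustment. Against HuT-102, 4496 genes were higher (32.9%) and 4489 lower (32.8%). Against MJ, 3799 were higher (27.8%) and 4845 lower (35.5%). Against HuT-78, 4586 were higher (33.6%) and 5051 lower (37.0%). With so many genes called, a call against the mean says little about a single gene. A stricter count was therefore kept of genes called on the same side of each of the 3 lines: 1962 were above each line (14.4%) and 2083 below each line (15.2%). With a difference of at least 1 on the log2(signal + 16) scale from each line, 612 remained above (4.48%) and 638 below (4.67%). The median difference over all genes tested was -0.06 on that scale. Wherever a gene is called above each line by a value, that value is a difference on this scale. Whether the 4 arrays of a line came from separate cultures is not stated, so the p-values measure the spread between these arrays, which may be technical.

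Several of the transcripts highest in MY-LA over the other lines were of genes best known outside T cells. CSTA, which encodes the protease inhibitor cystatin A of stratified epithelia, had signals of 17147, 21282, 24998 and 20967 in the 4 MY-LA arrays, against 31.6, 6.38, 10.3 and 1.99 in HuT-102, 240.1, 246, 206 and 274 in MJ and 26.8, 29.3, 30.7 and 5.87 in HuT-78. All 4 MY-LA arrays were far above the other 12, and HuT-102 and HuT-78 were near background (largest adjusted p against a single line = 1.78e-14). CYP4Z1, a cytochrome P450 known from breast tissue, was at 11026, 10254, 11721 and 11083 in the 4 MY-LA arrays, against 39.2, 42.0, 50.02 and 24.3 in HuT-102, 14.3, 39.6, 8.2 and 24.3 in MJ and 46.3, 14.7, 4.05 and 2.78 in HuT-78. It was near background in every array outside MY-LA. CYP4Z1 has a near-identical pseudogene copy, so its signal may include transcripts of that copy. SYT4, a synaptotagmin of secretory vesicles, reached 19949 ± 3056 in MY-LA, against 32.0 ± 20.4 in HuT-102, 1521 ± 135 in MJ and 19.96 ± 10.8 in HuT-78 (means ± SD, n = 4 arrays per line, here and below), so MJ was the only other line with a clear signal.

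Both monoamine oxidases, neighbouring genes whose enzymes break down serotonin, noradrenaline and dopamine, were highest in MY-LA. MAOA had 13214 ± 753 in MY-LA, against 38.0 ± 31.7 in HuT-102, 583 ± 90.1 in MJ and 28.2 ± 16.6 in HuT-78. MAOB was at 4860.3 ± 491 in MY-LA, against 11.2 ± 8.11 in HuT-102, 377 ± 88.4 in MJ and 5.88 ± 2.24 in HuT-78. In both, MJ came next and the remaining lines were near background. WFDC1, a secreted protein of the whey acidic protein family, was at 18088 ± 1284 in MY-LA, against 7.99 ± 6.02 in HuT-102, 9.62 ± 6.11 in MJ and 4102 ± 353 in HuT-78, and HuT-78 was the second line for it. LAYN, a hyaluronan receptor described on T cells in tumours, was at 5355 ± 197 in MY-LA, against 32.7 ± 24.8 in HuT-102, 12.1 ± 5.09 in MJ and 36.3 ± 20.3 in HuT-78. FCER2, the low-affinity IgE receptor CD23 of B cells, was at 3062 ± 188 in MY-LA, against 26.2 ± 7.35 in HuT-102, 19.2 ± 19.3 in MJ and 25.7 ± 16.1 in HuT-78. For LAYN and FCER2 each other line was near background.

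The list of the 20 largest positive differences went on with CA10, a carbonic anhydrase-related protein without enzyme activity, at 4704 in MY-LA, against 12.2 in HuT-102, 9.24 in MJ and 20.7 in HuT-78. RBPMS, an RNA-binding protein, was at 6583 in MY-LA, against 26.9 in HuT-102, 78.2 in MJ and 16.7 in HuT-78. ZIC2, a zinc finger factor of the developing brain, was at 3219.8 in MY-LA, against 15.8 in HuT-102, 5.23 in MJ and 69.3 in HuT-78. The regulator of G protein signalling RGS18 was at 4297 in MY-LA, against 36.0 in HuT-102, 36.4 in MJ and 12.6 in HuT-78. The tropomyosin TPM2 was at 2165 in MY-LA, against 3.93 in HuT-102, 3.02 in MJ and 42.1 in HuT-78. The sperm protein ZPBP was at 3388 in MY-LA, against 12.9 in HuT-102, 38.1 in MJ and 12.8 in HuT-78. UTS2B, a urotensin-related peptide, was at 3408 in MY-LA, against 53.6 in HuT-102, 33.6 in MJ and 11.05 in HuT-78. The J-domain protein DNAJC5B was at 8141 in MY-LA, against 95.0 in HuT-102, 123 in MJ and 80.6 in HuT-78. The remaining 4 were transcripts of uncertain or no protein product, LINC03024, LINC02241, CCDC144NL-AS1 and LOC102723692, of which LINC03024 had 3562 in MY-LA, against 5.74 in HuT-102, 6.61 in MJ and 6.35 in HuT-78. In each of these 20 genes the lowest MY-LA array was above the highest of the 12 others, as the naming rule required.

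The transcripts lowest in MY-LA included several that the other 3 lines all had in abundance. PRDX2, a peroxiredoxin that removes hydrogen peroxide, had signals of 2.59, 7.8, 3.64 and 7.29 in the 4 MY-LA arrays, against 8056, 8617, 8398 and 8147 in HuT-102, 15369, 15237, 15794 and 15744 in MJ and 6449, 5826, 5801 and 5342 in HuT-78. MY-LA was at background in all 4 arrays while the remaining lines reached much higher signals, and all 4 probe sets of the gene were called lower. LCK, the kinase that starts signalling from the T cell receptor, had signals of 6.01, 17.3, 18.99 and 7.02 in the 4 MY-LA arrays, against 2893, 2869, 2721 and 2847 in HuT-102, 6160.1, 5992, 6272 and 5888 in MJ and 12519, 12044, 12044 and 12609 in HuT-78. No MY-LA array reached the background limit, and the lowest of the 12 others was at 2721. GLUL, glutamine synthetase, was at 14.9 ± 17.2 in MY-LA, against 1854 ± 586 in HuT-102, 4346 ± 286 in MJ and 23862 ± 1691 in HuT-78, with HuT-78 the highest line. MARCKS, a membrane-bound substrate of protein kinase C, was at 2.51 ± 1.69 in MY-LA, against 1428 ± 90.6 in HuT-102, 8144 ± 573 in MJ and 3685 ± 183 in HuT-78. SOX4, a high-mobility-group transcription factor, was at 33.2 ± 16.1 in MY-LA, against 7536 ± 905 in HuT-102, 7372 ± 396 in MJ and 9561 ± 440.3 in HuT-78. The largest adjusted p of MY-LA against a single line was 3.35e-24 for PRDX2, 9.61e-21 for LCK, 3.72e-14 for GLUL, 4.05e-22 for MARCKS and 3.91e-18 for SOX4.

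ADA, the purine-salvage enzyme adenosine deaminase, was near background in MY-LA alone, at 6.78 ± 1.28 in MY-LA, against 2179 ± 395 in HuT-102, 1914 ± 322 in MJ and 3670 ± 123 in HuT-78. The same held for SLFN11, which blocks replication forks under DNA damage, at 8.9 ± 4.72 in MY-LA, against 1711 ± 34.7 in HuT-102, 1204 ± 131 in MJ and 3644 ± 136 in HuT-78. It held too for ALKBH3, a demethylase that repairs alkylated DNA, at 2.63 ± 0.575 in MY-LA, against 856 ± 98.1 in HuT-102, 837 ± 66.6 in MJ and 2829 ± 126 in HuT-78. GNB4, a G protein beta subunit, was at 2.96 in MY-LA, against 3542 in HuT-102, 901 in MJ and 1272 in HuT-78. VAMP8, a SNARE protein of granule release, was at 56.9 in MY-LA, against 5359 in HuT-102, 4919 in MJ and 5543 in HuT-78. GIMAP2, a GTPase of lymphocytes, was at 1.92 in MY-LA, against 1658 in HuT-102, 543 in MJ and 1987 in HuT-78. NREP, a small neuronal regeneration protein, was at 52.2 in MY-LA, against 6912 in HuT-102, 6379.8 in MJ and 2024 in HuT-78. ARMCX6 was at 39.8 in MY-LA, against 3585 in HuT-102, 4283 in MJ and 3334 in HuT-78. TCEAL8 was at 7.5 in MY-LA, against 1408 in HuT-102, 1692 in MJ and 1464 in HuT-78, both genes of 1 region of the X chromosome. A further 4 genes of the 20, EIF2AK2, DTX3L, XAF1 and IRF2, belong to or control the interferon response and are given with it below, as is HLA-DRA with the class II genes and DUSP1 with the AP-1 genes.

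**Figure D1:**
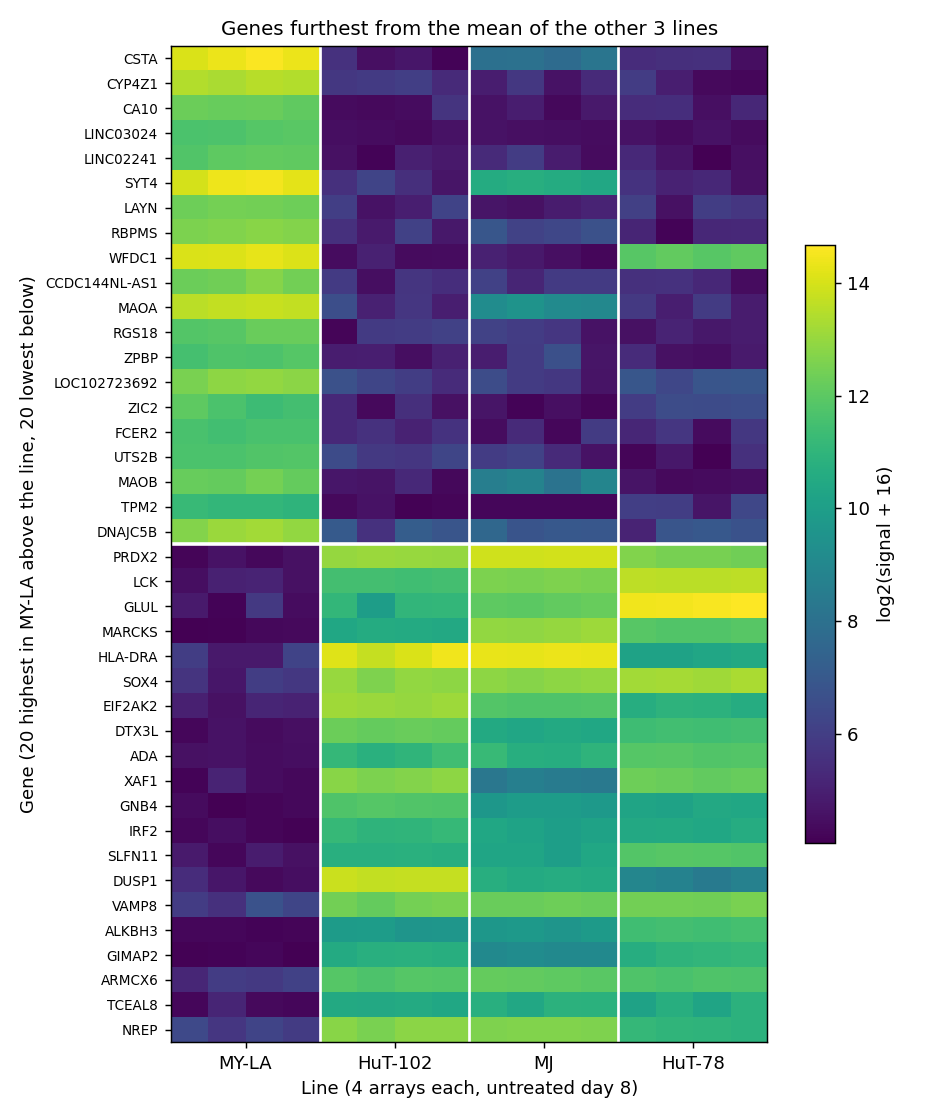
Heat map of log2(signal + 16) in each of the 16 untreated day 8 arrays, with the 4 MY-LA arrays at the left, for the 20 genes with the largest positive and the 20 with the largest negative difference from the mean of the other 3 lines. SYT4, MAOA and MAOB are also visible in MJ and WFDC1 in HuT-78, while PRDX2, LCK and GLUL are dark only in the MY-LA arrays.

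MY-LA kept transcripts of the T cell receptor complex but had little of several signalling and surface genes of T cells. Of 25 genes listed for T cell identity, 23 had a usable probe set and 20 passed the filter. Against the mean of the other lines, 7 were higher and 11 lower (35% and 55% of those tested, beside 32.5% and 38.0% of all genes), with a median difference of -0.33. Above each line were 3, and 7 were below each line (beside 14.4% and 15.2% of all genes). Against HuT-78, 17 were lower and 3 higher (beside 37.0% and 33.6% of all genes).

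CD3D, a signalling chain of the receptor complex, was at 13353 ± 1643 in MY-LA, against 5914 ± 454 in HuT-102, 8272 ± 235 in MJ and 17539.9 ± 628 in HuT-78, second to HuT-78. CD3G was at 792 ± 65.2 in MY-LA, against 624 ± 133 in HuT-102, 981 ± 131 in MJ and 1127 ± 85.9 in HuT-78. It did not pass the test against the mean (adjusted p = 0.211). CD247, the zeta chain, was at 3717 ± 209.6 in MY-LA, against 3852 ± 257 in HuT-102, 3268 ± 164 in MJ and 8349 ± 316 in HuT-78. CD3E was low in MY-LA, at 100.2 ± 32.0 in MY-LA, against 168 ± 35.7 in HuT-102, 1119.7 ± 85.7 in MJ and 964 ± 81.4 in HuT-78, and HuT-102 was low as well. The probe set for TRBC1, a constant region of the receptor beta chain whose near-identical copy TRBC2 may share it, was at 1293 ± 102.4 in MY-LA, against 19522 ± 1801 in HuT-102, 4885 ± 139.6 in MJ and 16538 ± 512 in HuT-78. It was below each line, with log2 differences of -3.90 against HuT-102, -1.91 against MJ and -3.66 against HuT-78 (largest adjusted p = 1.01e-15). ZAP70, the kinase that binds the phosphorylated zeta chain, was at 2864 ± 509 in MY-LA, against 1386 ± 126 in HuT-102, 1717 ± 67.9 in MJ and 4774 ± 390.3 in HuT-78. THEMIS, a regulator of receptor signalling in thymocytes, was above each line, at 3495 ± 413 in MY-LA, against 1158 ± 53.7 in HuT-102, 2985 ± 116 in MJ and 1341 ± 174 in HuT-78 (largest adjusted p = 0.0381). The adaptor LAT was below each line, at 430.1 ± 64.1 in MY-LA, against 3110.3 ± 104 in HuT-102, 2144 ± 102.4 in MJ and 4761 ± 246 in HuT-78. The log2 differences were -2.82 against HuT-102, -2.29 against MJ and -3.43 against HuT-78. Levels of the receptor chains thus varied by gene, and LCK and LAT stood lowest in MY-LA of the 4 lines.

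Among surface molecules, CD4, the coreceptor of helper T cells, had signals of 16.3, 98.4, 42.4 and 82.6 in the 4 MY-LA arrays, against 4169.9, 3573, 3786 and 3860.2 in HuT-102, 2149.9, 2754, 2272 and 2049 in MJ and 492, 488, 535 and 509 in HuT-78. The MY-LA arrays straddled the background limit and lay below all others (largest adjusted p = 1.12e-09). CD5 was at 29.1 ± 13.3 in MY-LA, against 3121 ± 358 in HuT-102, 2759 ± 303 in MJ and 1491 ± 143 in HuT-78. CD6 was at 138 ± 34.7 in MY-LA, against 6593 ± 142 in HuT-102, 6466 ± 479 in MJ and 4860.2 ± 314 in HuT-78. Both were below each line. CD2, the LFA-3 receptor, was above each line, at 14596 ± 1162 in MY-LA, against 10466 ± 837 in HuT-102, 6965 ± 472 in MJ and 44.5 ± 9.27 in HuT-78, and near background in HuT-78. CD7, whose loss is a known feature of Sézary cells, was near background in MY-LA, HuT-102 and MJ, at 12.4 in MY-LA, against 13.97 in HuT-102, 22.2 in MJ and 100.7 in HuT-78. CD8A was low everywhere but above each line in MY-LA, at 173 ± 20.3 in MY-LA, against 56.5 ± 22.8 in HuT-102, 15.5 ± 9.24 in MJ and 83.9 ± 29.7 in HuT-78. TRAT1 was near background in both MY-LA and MJ, at 4.57 in MY-LA, against 1318 in HuT-102, 8.6 in MJ and 687 in HuT-78. PTPRC, which encodes CD45, was at 2208 in MY-LA, against 7860 in HuT-102, 446 in MJ and 2812 in HuT-78, between the other lines, and did not pass the test against the mean (adjusted p = 0.681). LCP2 was at 1144 in MY-LA, against 785 in HuT-102, 1906 in MJ and 1931 in HuT-78. UBASH3A had 750.2 in MY-LA, against 504 in HuT-102, 394 in MJ and 994 in HuT-78. SIT1 was at 2233 in MY-LA, against 21.6 in HuT-102, 2491 in MJ and 2962 in HuT-78. CD8B, CD27 and CD28 were near background in all 4 lines. On arrays of bulk RNA, fewer cells with a transcript and less of it per cell cannot be told apart.

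**Figure D2:**
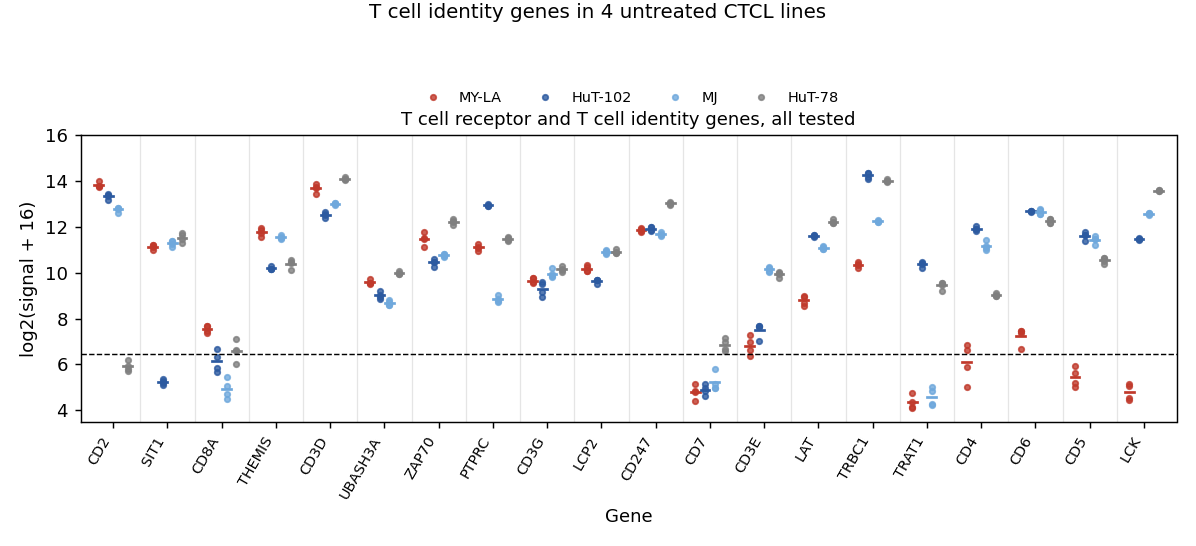
Log2(signal + 16) of the 20 tested T cell identity genes, ordered by the difference of MY-LA from the mean of the other lines. Points are the 4 arrays of a line, short bars their mean, and the dashed line is the filter threshold (log2 6.46). MY-LA is the lowest line for LCK, CD5, CD6, CD4, TRBC1, LAT and CD3E and the highest for CD2, THEMIS and CD8A.

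The cells were checked against markers of other cell types. Near background in MY-LA were 6 of 11 B cell, 7 of 11 myeloid, 9 of 9 NK cell, 8 of 10 epithelial, 6 of 12 stromal and 8 of 10 endothelial markers with a probe set. Among these were CD14, LYZ and SPI1 of myeloid cells, KRT5, KRT14 and EPCAM of epithelia, PDGFRB and DES of stroma and muscle, and VWF, CDH5 and KDR of endothelium, and MS4A1 (CD20) of B cells. Over all genes with a probe set, 11142 of 19775 reached the background limit in MY-LA, so a marker near background was not unusual. The summed signal of the 11 B cell markers was 2874 to 3094 in MY-LA arrays, against 5577 to 6221 in HuT-102, 1301 to 1392 in MJ and 1607 to 2071 in HuT-78. Most of the MY-LA sum was EBF1, a factor of the B lineage, at 2092 ± 60.7 in MY-LA, against 2933 ± 136 in HuT-102, 198 ± 25.2 in MJ and 12.02 ± 17.8 in HuT-78. The stromal sum was 11437 to 12996 in MY-LA, against 8852 to 9819 in HuT-102, 5929 to 6679 in MJ and 2992 to 3555 in HuT-78. COL3A1, a fibrillar collagen, was at 3656 ± 377 in MY-LA, against 24.99 ± 23.7 in HuT-102, 2055 ± 83.6 in MJ and 46.9 ± 6.54 in HuT-78. FBN1, fibrillin, was at 1977 ± 195 in MY-LA, against 1071 ± 102.2 in HuT-102, 854 ± 71.2 in MJ and 677 ± 74.4 in HuT-78. Each of the pair was above each line. ACTA2, smooth muscle actin, was at 5290.3 in MY-LA, against 5825 in HuT-102, 2174 in MJ and 1480.2 in HuT-78. Periostin, POSTN, was at 298 in MY-LA, against 667 in HuT-102, 25.5 in MJ and 10.3 in HuT-78. Of the epithelial markers, CDH1 (E-cadherin) was above each line, at 779 ± 47.9 in MY-LA, against 5.14 ± 3.41 in HuT-102, 51.2 ± 11.3 in MJ and 185 ± 28.1 in HuT-78. The listed NK cell markers summed to 267 to 391 in MY-LA, against 4162 to 5544 in HuT-102, 581 to 845 in MJ and 19562 to 20648 in HuT-78. KIR2DS2, a killer cell receptor gene outside the list, was instead at 3598 in MY-LA, against 8.34 in HuT-102, 5.46 in MJ and 4715 in HuT-78. Its probe set may also detect other KIR genes, which are near-identical copies. Sums of the myeloid list were 713 to 822 in MY-LA, against 12393 to 17151 in HuT-102, 1749 to 1962 in MJ and 665 to 838 in HuT-78. The integrin chains ITGAM (CD11b) and ITGAX (CD11c) were above background in MY-LA. ITGAM was at 302 in MY-LA, against 93.2 in HuT-102, 205 in MJ and 464 in HuT-78, and ITGAX had 148 in MY-LA, against 231 in HuT-102, 27.1 in MJ and 17.7 in HuT-78. The epithelial sums were 987 to 1225 in MY-LA, against 341 to 554 in HuT-102, 1244 to 1457 in MJ and 9988 to 11523 in HuT-78, and the endothelial sums 370 to 489 in MY-LA, against 477 to 681 in HuT-102, 679 to 847 in MJ and 226 to 336 in HuT-78. Each list had members near background in MY-LA, and the part of these transcripts in the other results was not tested.

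Among 37 tested transcription factors of the T lineage, 15 were higher and 16 lower (40.5% and 43.2%, beside 32.5% and 38.0% of all genes). Against HuT-78 the counts were 18 and 16 (beside 33.6% and 37.0% of all genes). Those furthest from the mean were all lower. ID3, an inhibitor of E proteins, was at 7.3 ± 3.97 in MY-LA, against 416 ± 97.6 in HuT-102, 622 ± 43.1 in MJ and 4140.1 ± 211 in HuT-78, near background in MY-LA only. TBX21, the master factor of type 1 helper cells, was at 54.3 ± 32.1 in MY-LA, against 3605 ± 143 in HuT-102, 1993 ± 118 in MJ and 68.3 ± 11.9 in HuT-78, and HuT-78 was near background as well. EOMES, its relative in cytotoxic cells, was at 29.4 ± 13.7 in MY-LA, against 252 ± 29.0 in HuT-102, 67.6 ± 17.8 in MJ and 339.9 ± 37.0 in HuT-78. RORA, a nuclear receptor of type 17 helper cells, was at 39.5 ± 13.1 in MY-LA, against 783 ± 76.8 in HuT-102, 73.5 ± 17.3 in MJ and 401 ± 31.5 in HuT-78. IKZF3 (Aiolos) was below each line with log2 differences of -1.06 against HuT-102, -2.58 against MJ and -2.12 against HuT-78. ID3, RORA, EOMES and IKZF3 were called below each line, whereas TBX21 was not called against HuT-78 (adjusted p = 0.15). EOMES was near background in MJ as well, so its order against MJ is not reliable, and RORA in MJ was close to the limit.

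Cytokine genes differed in both directions. IL13, a type 2 cytokine, had signals of 5738, 5283, 5956 and 5207 in the 4 MY-LA arrays, against 334, 389.8, 275 and 514 in HuT-102, 3272, 2997, 2948 and 2887 in MJ and 32.4, 27.7, 66.6 and 53.8 in HuT-78. MY-LA was above each line and HuT-78 was near background (largest adjusted p = 0.000189). IL5, which recruits eosinophils, was at 3026 ± 271 in MY-LA, against 3.11 ± 1.51 in HuT-102, 2723 ± 91.1 in MJ and 3.8 ± 2.78 in HuT-78, so that MY-LA and MJ were high and HuT-102 and HuT-78 were at background. IFNG, the type 1 cytokine interferon gamma, had signals of 29.3, 33.5, 3.43 and 22.7 in the 4 MY-LA arrays, against 4994, 5136, 5017 and 6326 in HuT-102, 4056, 3184, 3413 and 3330.1 in MJ and 145, 180.3, 236 and 147 in HuT-78. All MY-LA arrays were near background and below the 12 others (largest adjusted p = 2.67e-09). IL26, of the IL10 family, was at 7.13 ± 6.17 in MY-LA, against 2191 ± 457 in HuT-102, 679 ± 62.2 in MJ and 34.4 ± 7.5 in HuT-78. Of 32 cytokine genes tested, 13 were higher and 16 lower against the mean (40.6% and 50%, beside 32.5% and 38.0% of all genes). Above each line were 5 and below each line 3 (beside 14.4% and 15.2% of all genes). Against HuT-78 alone, 13 were higher and 11 lower (beside 33.6% and 37.0% of all genes).

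The IL6-type cytokines LIF and OSM were both above each line. LIF was at 5190.2 ± 753 in MY-LA, against 346 ± 31.5 in HuT-102, 1236 ± 62.7 in MJ and 459 ± 38.2 in HuT-78. The log2 differences were 3.84 against HuT-102, 2.05 against MJ and 3.45 against HuT-78 (largest adjusted p = 1.74e-13). OSM was at 1672 ± 185 in MY-LA, against 125 ± 40.2 in HuT-102, 428 ± 30.2 in MJ and 119.7 ± 15.6 in HuT-78. Its log2 differences were 3.62 against HuT-102, 1.92 against MJ and 3.64 against HuT-78 (largest adjusted p = 2.41e-09). TNFSF4 (OX40 ligand) was at 7845 ± 369 in MY-LA, against 4168 ± 269 in HuT-102, 11516 ± 233 in MJ and 65.1 ± 12.3 in HuT-78, where only HuT-78 was near background. IL15 was at 7415 ± 1134 in MY-LA, against 28107 ± 1689 in HuT-102, 509 ± 37.1 in MJ and 93.4 ± 13.1 in HuT-78, and MY-LA stood below HuT-102 and above the rest.

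Of 18 chemokine genes tested, 6 were higher and 10 lower (33.3% and 55.6%, beside 32.5% and 38.0% of all genes), with a median of -0.76. The comparison depended on the line: 13 were lower than in HuT-102, 13 lower than in MJ and 2 lower than in HuT-78. Over all genes these shares were 32.8%, 35.5% and 37.0%. CCL1 was at 7.74 ± 4.36 in MY-LA, against 7029 ± 1429 in HuT-102, 10772 ± 938 in MJ and 2.73 ± 1.09 in HuT-78. The signal of CCL4 was 20.2 ± 10.01 in MY-LA, against 5683 ± 577 in HuT-102, 2068 ± 373 in MJ and 13.3 ± 5.27 in HuT-78. CXCL13, the B cell attractant, was at 4.98 ± 2.25 in MY-LA, against 1579 ± 365 in HuT-102, 2052 ± 292 in MJ and 10.7 ± 5.22 in HuT-78. In these 3 genes MY-LA and HuT-78 were both near background. CCL20, the ligand of CCR6, was near background in MY-LA only, at 3.9 ± 1.81 in MY-LA, against 1722 ± 229 in HuT-102, 86.8 ± 17.7 in MJ and 260.4 ± 32.5 in HuT-78. CXCL3, a neutrophil attractant, went the other way, at 558 ± 47.8 in MY-LA, against 14.1 ± 12.4 in HuT-102, 81.9 ± 16.7 in MJ and 16.4 ± 15.7 in HuT-78, above each line (largest adjusted p = 2.78e-07).

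IL12RB1 and IL12RB2 are the receptor chains for the type 1 cytokine IL12. IL12RB1 was at 112 ± 28.1 in MY-LA, against 1326 ± 84.2 in HuT-102, 883 ± 124 in MJ and 379 ± 19.6 in HuT-78. It was below each line, with log2 differences of -3.41 against HuT-102, -2.83 against MJ and -1.65 against HuT-78. IL12RB2 was at 33.9 ± 27.2 in MY-LA, against 664 ± 65.1 in HuT-102, 4083 ± 312 in MJ and 36.6 ± 10.7 in HuT-78. CRLF2, the receptor for thymic stromal lymphopoietin, an epithelial cytokine that drives type 2 responses, was at 1664 ± 137 in MY-LA, against 13.9 ± 1.59 in HuT-102, 1564 ± 251 in MJ and 58.8 ± 24.2 in HuT-78, high in MY-LA and MJ. Its partner IL7R was above each line, at 1049.6 ± 63.0 in MY-LA, against 172 ± 29.2 in HuT-102, 97.1 ± 12.04 in MJ and 526 ± 123 in HuT-78. The log2 differences were 2.51 against HuT-102, 3.24 against MJ and 0.997 against HuT-78 (largest adjusted p = 6.26e-06). IL2RA (CD25) was at 18778 ± 1498 in MY-LA, against 15921 ± 410.4 in HuT-102, 16246 ± 1098 in MJ and 234 ± 21.1 in HuT-78, above each line though by little over HuT-102 and MJ, with differences of 0.23 against HuT-102, 0.21 against MJ and 6.23 against HuT-78. CSF2RB, the shared chain of the receptors for IL3, IL5 and GM-CSF, was below each line, with log2 differences of -3.00 against HuT-102, -1.84 against MJ and -2.34 against HuT-78 (largest adjusted p = 4.31e-14). Among chemokine receptors, CCR8 was near background in MY-LA and HuT-102, at 8.17 in MY-LA, against 30.0 in HuT-102, 721 in MJ and 1147 in HuT-78. CCR10, a skin-homing receptor, was at 479.7 in MY-LA, against 32.8 in HuT-102, 482 in MJ and 224 in HuT-78. Over the 34 cytokine receptor genes tested, 10 were higher and 17 lower (29.4% and 50%, beside 32.5% and 38.0% of all genes). The counts against HuT-78 were 14 higher and 10 lower (beside 33.6% and 37.0% of all genes).

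Costimulatory and checkpoint genes were split, 12 higher and 14 lower of 29 tested (41.4% and 48.3%, beside 32.5% and 38.0% of all genes). The counts against HuT-78 were 18 higher and 8 lower (beside 33.6% and 37.0% of all genes). ICOS, a CD28 relative, had signals of 9642, 9887, 11022 and 10088 in the 4 MY-LA arrays, against 67.2, 104, 53.5 and 114 in HuT-102, 4873, 5076, 5263 and 4955 in MJ and 363, 393, 408 and 415 in HuT-78. The MY-LA arrays lay above all others, and MJ came next (largest adjusted p = 1.7e-06). TIGIT, an inhibitory receptor, was at 7399 ± 601 in MY-LA, against 213 ± 35.7 in HuT-102, 6024 ± 193 in MJ and 40.9 ± 12.9 in HuT-78. CTLA4 was at 744 ± 156 in MY-LA, against 46.3 ± 33.5 in HuT-102, 542 ± 20.8 in MJ and 29.8 ± 24.96 in HuT-78. ENTPD1 (CD39), which degrades extracellular ATP, was above each line, at 5410.4 ± 602 in MY-LA, against 160.2 ± 53.9 in HuT-102, 2504 ± 147 in MJ and 1057 ± 74.96 in HuT-78. The log2 differences were 4.99 against HuT-102, 1.10 against MJ and 2.33 against HuT-78 (largest adjusted p = 2.46e-06). CD52, the target of alemtuzumab, was at 4.64 ± 2.91 in MY-LA, against 296 ± 75.5 in HuT-102, 436 ± 97.7 in MJ and 7479.5 ± 648 in HuT-78, near background in MY-LA only. CRTAM, an adhesion receptor of activated cytotoxic cells, was at 3.34 ± 2.52 in MY-LA, against 565 ± 98.5 in HuT-102, 609 ± 78.3 in MJ and 463 ± 44.8 in HuT-78. CD96 was at 36.4 ± 4.27 in MY-LA, against 260.1 ± 37.7 in HuT-102, 96.2 ± 22.2 in MJ and 1369 ± 96.5 in HuT-78. Both were below each line.

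**Figure D3:**
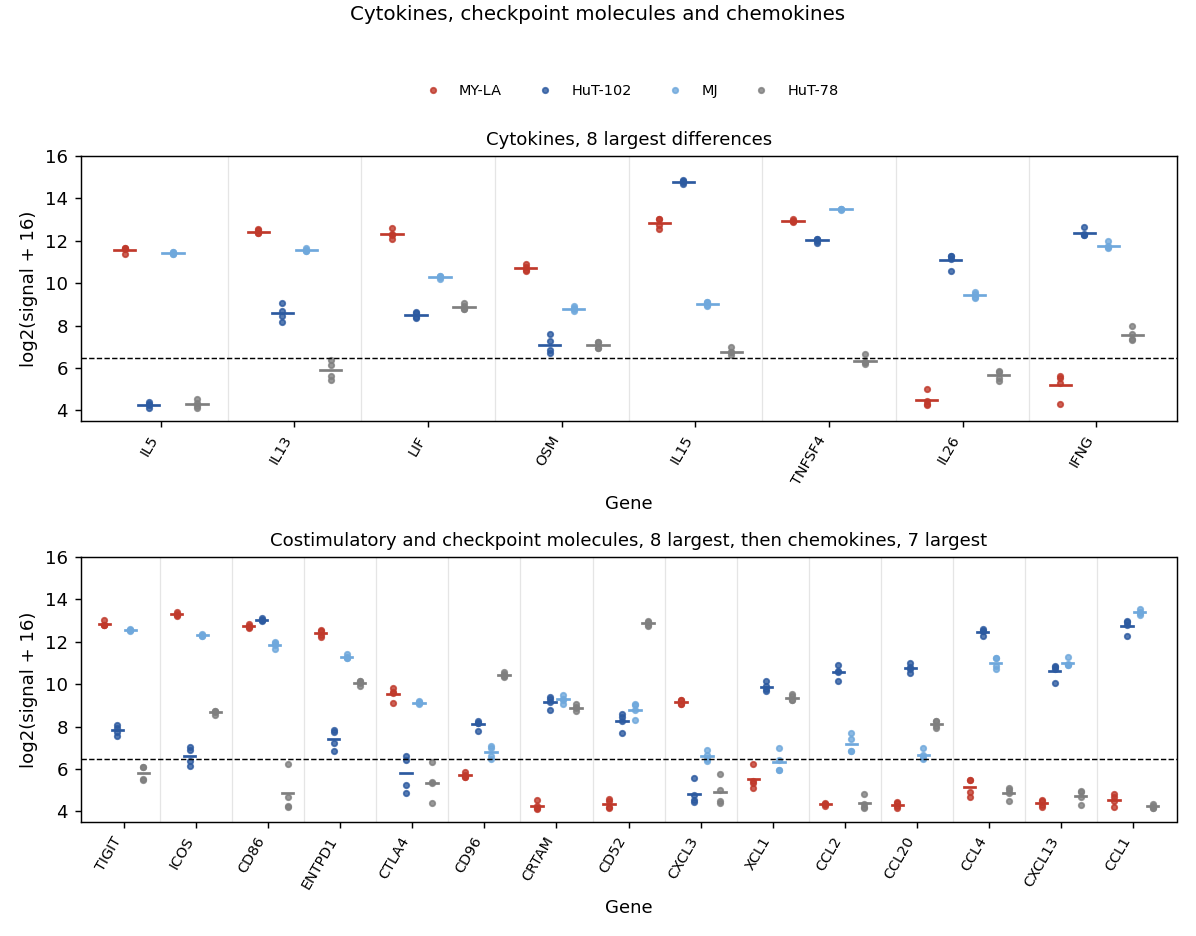
Log2(signal + 16) of the cytokine, checkpoint and chemokine genes with the largest differences from the mean, drawn as points for each array with the mean of each line as a bar and the filter threshold as a dashed line (log2 6.46). IL13, LIF, OSM, ICOS, ENTPD1 and CXCL3 are highest in MY-LA, and IFNG, IL26, CRTAM, CD52 and CCL20 lie near background in MY-LA.

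Adhesion genes included members far apart in both directions. VCAM1, an adhesion molecule of activated endothelium, was at 5434 ± 366 in MY-LA, against 65.0 ± 22.2 in HuT-102, 2148 ± 177 in MJ and 183 ± 23.8 in HuT-78, above each line, and HuT-102 was near background. ICAM2 was above each line by 1.84 against HuT-102, 1.86 against MJ and 1.66 against HuT-78 on the log2 scale (largest adjusted p = 2.28e-14). FUT7, the fucosyltransferase that builds the skin-homing selectin ligand, was at 2384 ± 266 in MY-LA, against 118 ± 54.6 in HuT-102, 2468 ± 262 in MJ and 17.7 ± 20.5 in HuT-78, with MY-LA and MJ within 1 SD of each other. CADM1, an adhesion molecule known as a marker of HTLV-1-infected T cells, was at 36.6 ± 19.7 in MY-LA, against 13039 ± 1313 in HuT-102, 1928 ± 174 in MJ and 113 ± 38.8 in HuT-78. It was near background in MY-LA only. ITGB7 was below each line, with log2 differences of -4.04 against HuT-102, -1.32 against MJ and -1.42 against HuT-78, and ITGB2, the shared chain of leukocyte integrins, with -0.44 against HuT-102, -1.90 against MJ and -3.71 against HuT-78. Of 28 genes tested in this list, 15 were higher and 10 lower (53.6% and 35.7%, beside 32.5% and 38.0% of all genes). The counts against HuT-78 were 12 higher and 10 lower (beside 33.6% and 37.0% of all genes).

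Cytotoxic granule genes were mostly lower than the mean of the other lines, 9 of 11 tested lower and 1 higher (81.8% and 9.09%, beside 38.0% and 32.5% of all genes). However, 7 of the 11 passed the filter through other lines alone. Lower than in HuT-78 were 7, and 3 were higher (beside 37.0% and 33.6% of all genes). Against HuT-102, 5 were lower and 2 higher (beside 32.8% and 32.9%), and the same counts held against MJ (beside 35.5% and 27.8%). The median difference was -2.58 against HuT-78, -0.71 against HuT-102 and -0.65 against MJ. Below each line were 3 (beside 15.2% of all genes). The summed signal of the list was 17942 to 21396 in MY-LA, against 19488 to 23779 in HuT-102, 24208 to 26531 in MJ and 38727 to 40002 in HuT-78. NKG7, a granule membrane protein, was at 29.3 ± 11.6 in MY-LA, against 4279 ± 607 in HuT-102, 85.5 ± 28.0 in MJ and 1689 ± 139 in HuT-78. CST7, an inhibitor of granule proteases, was at 11.1 ± 3.8 in MY-LA, against 51.4 ± 29.1 in HuT-102, 1100 ± 66.4 in MJ and 1047 ± 57.4 in HuT-78. CTSW, a cathepsin of cytotoxic cells, was at 16.7 ± 3.33 in MY-LA, against 34.2 ± 9.29 in HuT-102, 729 ± 38.0 in MJ and 1033 ± 106 in HuT-78. CST7 and CTSW were near background in HuT-102 as well. The member called higher against the mean was GZMM, granzyme M, at 1663 ± 270.1 in MY-LA, against 38.6 ± 14.95 in HuT-102, 69.5 ± 22.1 in MJ and 999 ± 43.9 in HuT-78, above each line (largest adjusted p = 0.00249).

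The MHC class II genes diverged inside 1 pathway. Class II molecules present peptides to CD4+ T cells, and human T cells make them on activation; the coactivator CIITA works through the X and Y boxes of their promoters, bound by the RFX complex and NF-Y. CIITA had signals of 2303, 1969, 1624 and 1414 in the 4 MY-LA arrays, against 91.8, 112, 93.2 and 99.2 in HuT-102, 270.5, 211, 227 and 158 in MJ and 114, 118, 90.6 and 87.4 in HuT-78. Every MY-LA array was above the others, by 3.98 against HuT-102, 2.98 against MJ and 3.95 against HuT-78 on the log2 scale (largest adjusted p = 5.1e-12). RFX5, a subunit of RFX, was above each line as well, at 12308 ± 225 in MY-LA, against 4549 ± 250.4 in HuT-102, 4264 ± 328 in MJ and 2767 ± 121 in HuT-78. The log2 differences were 1.43 against HuT-102, 1.53 against MJ and 2.15 against HuT-78. HLA-DRA, the alpha chain of the DR molecule, had signals of 48.1, 11.95, 11.8 and 57.8 in the 4 MY-LA arrays, against 18099, 13724, 17137 and 22012 in HuT-102, 20488, 19999, 20872 and 20258 in MJ and 1153, 1138, 1284 and 1436 in HuT-78. No MY-LA array reached the background limit, and both probe sets of the gene were called lower. HLA-DRB1, the DR beta chain, was at 210.1 ± 44.5 in MY-LA, against 18970.3 ± 2792 in HuT-102, 26744 ± 1042 in MJ and 2447 ± 282 in HuT-78. It was below each line, with log2 differences of -6.40 against HuT-102, -6.91 against MJ and -3.46 against HuT-78 (largest adjusted p = 5.87e-16). DR beta genes are near-identical copies that differ between people, and the alleles of a line can change how its RNA binds probes, so this level is uncertain.

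The DP, DM and DO genes were high in the same cells, whereas the DQ genes were not. HLA-DMB, of the DM molecule that loads peptides, was at 9556 ± 864 in MY-LA, against 774 ± 92.4 in HuT-102, 2304 ± 328 in MJ and 819 ± 57.3 in HuT-78. This was above each line by 3.60 against HuT-102, 2.05 against MJ and 3.52 against HuT-78 (largest adjusted p = 2.03e-13). HLA-DMA was at 12287 ± 712 in MY-LA, against 3919.9 ± 513 in HuT-102, 6626 ± 307 in MJ and 1114 ± 54.2 in HuT-78. This was above each line by 1.65 against HuT-102, 0.89 against MJ and 3.44 against HuT-78. HLA-DOA and HLA-DOB, of the DO molecule that restrains DM, were above each line too. HLA-DOA was at 5152 ± 307 in MY-LA, against 544 ± 19.4 in HuT-102, 1342 ± 49.4 in MJ and 307 ± 23.7 in HuT-78. HLA-DOB was at 3825 ± 193 in MY-LA, against 289 ± 31.6 in HuT-102, 564 ± 71.9 in MJ and 225 ± 34.7 in HuT-78. HLA-DPA1 was at 34709 ± 2825 in MY-LA, against 22452 ± 1669 in HuT-102, 23594 ± 945 in MJ and 3785 ± 363 in HuT-78. HLA-DPB1 was at 24121 ± 1518 in MY-LA, against 8936 ± 1259.9 in HuT-102, 15079 ± 413 in MJ and 477 ± 53.8 in HuT-78. CD74, the invariant chain, was at 33735 ± 1222 in MY-LA, against 12618 ± 1438 in HuT-102, 13035 ± 526 in MJ and 4419.6 ± 161 in HuT-78. This was above each line by 1.42 against HuT-102, 1.37 against MJ and 2.93 against HuT-78 (largest adjusted p = 2.29e-13). HLA-DQA1 was near background in MY-LA and in HuT-78, at 9.36 in MY-LA, against 85.3 in HuT-102, 6007 in MJ and 5.54 in HuT-78. HLA-DQB1 was at 532 in MY-LA, against 7545 in HuT-102, 3688 in MJ and 327 in HuT-78. Whether the alleles of a line changed probe binding for the DQ genes, as can happen for DR beta, was not tested. CTSS, cathepsin S, which cleaves CD74, was at 52.8 ± 14.5 in MY-LA, against 998 ± 128 in HuT-102, 664 ± 65.2 in MJ and 817 ± 37.9 in HuT-78. In all, 9 of the 14 tested genes were above each line and 3 below each line (beside 14.4% and 15.2% of all genes). HLA-DMA, HLA-DPA1, HLA-DPB1, HLA-DQB1, CD74 and RFX5 lie outside the naming rule and were named after their values were seen.

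Promoters of the class II list were searched for letters of the X box (CTGATGATG) and of the Y box (TGATTGG) in RefSeq sequence of GRCh38.p14, 250 bases before to 50 after each gene start, on both strands. Of 11 promoters at hand, 4 held the first and 6 the second, beside 0.267% and 7.28% of 27305 promoters. The 4 with both or the first motif are shown from just before the X box on, because they include genes on both sides of the comparison. HLA-DRB1, lowest in MY-LA, is at chr6:32589877-32589937. HLA-DMA is at chr6:32953159-32953220, HLA-DMB at chr6:32941032-32941126 and HLA-DOB at chr6:32817083-32817142, all highest in MY-LA. Each is on the minus strand and printed 5′ to 3′ along the gene with the motifs in capitals.
HLA-DRB1: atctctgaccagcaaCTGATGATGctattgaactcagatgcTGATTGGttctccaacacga
HLA-DMA: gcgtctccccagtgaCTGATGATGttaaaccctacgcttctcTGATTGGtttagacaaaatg
HLA-DMB: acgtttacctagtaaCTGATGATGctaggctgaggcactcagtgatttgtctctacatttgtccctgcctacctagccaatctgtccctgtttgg
HLA-DOB: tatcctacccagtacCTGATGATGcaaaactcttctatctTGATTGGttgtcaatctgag
The same letters of the X box stood in all 4, and those of the Y box followed in HLA-DRB1, HLA-DMA and HLA-DOB. The printed reference holds no allele of these lines. A match is a description of the reference sequence, and no protein binding was measured.

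Of 17 MHC class I genes tested, 13 were lower and 1 higher (76.5% and 5.88%, beside 38.0% and 32.5% of all genes), with a median difference of -0.42. Against HuT-78 the median was 0.05, with 5 members higher. NLRC5, the coactivator of class I genes and a relative of CIITA, was at 107 ± 7.53 in MY-LA, against 4173 ± 533 in HuT-102, 2939 ± 213 in MJ and 1230.2 ± 243 in HuT-78. It was below each line, with log2 differences of -5.09 against HuT-102, -4.59 against MJ and -3.32 against HuT-78 (largest adjusted p = 9.85e-16). The immunoproteasome subunits PSMB9 and PSMB10 were below each line, PSMB10 with -1.70 against HuT-102, -1.59 against MJ and -1.37 against HuT-78 and PSMB9 with -1.39 against HuT-102, -1.39 against MJ and -0.76 against HuT-78. HLA-B differed by -0.67 ± 0.06 (SE) from the mean, with -0.95 against HuT-102, -0.65 against MJ and -0.41 against HuT-78, and its signal can include other class I genes. ERAP2, a peptide-trimming aminopeptidase, was the only member higher, at 5256 ± 268 in MY-LA, against 342 ± 42.4 in HuT-102, 2840.1 ± 165 in MJ and 990.3 ± 103 in HuT-78 (largest adjusted p = 1.43e-08). ERAP1 was called lower on the probe set used, but 2 of its 4 probe sets were called higher and 2 lower. Against single lines the list differed: 15 members were lower than in HuT-102 and 13 than in MJ, but 6 than in HuT-78. Over all genes these shares were 32.8%, 35.5% and 37.0%.

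Interferon-stimulated genes formed a large group at low level in MY-LA. Interferons switch these genes on through the interferon-stimulated response element of their promoters, and many of their products block viral replication. Of 32 members tested, 24 were lower and 7 higher against the mean (75% and 21.9%, beside 38.0% and 32.5% of all genes), with a median difference of -2.51 on the log2(signal + 16) scale, beside -0.06 over all genes. The list was most unlike HuT-102, where the median difference was -4.92, beside -1.55 against MJ and -1.01 against HuT-78. Against HuT-78, 19 were lower and 11 higher (beside 37.0% and 33.6% of all genes). Of the 32, 12 passed the filter through other lines alone. Below each of the 3 lines were 15 members (beside 15.2% of all genes), and 0 were above each line.

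IFIT5, of the family that binds viral RNA, had signals of 6.02, 12.01, 2.19 and 6.81 in the 4 MY-LA arrays, against 2381, 2309.6, 2504 and 2606 in HuT-102, 1011, 755, 905 and 858 in MJ and 478, 534, 633 and 614 in HuT-78. Every MY-LA array was at background and the 12 others were all above it (largest adjusted p = 3.67e-17). OAS3, an oligoadenylate synthetase, was at 41.1 ± 16.7 in MY-LA, against 6387 ± 413 in HuT-102, 612 ± 25.2 in MJ and 997 ± 29.7 in HuT-78. OAS1 was at 28.4 ± 8.5 in MY-LA, against 9976 ± 1199.9 in HuT-102, 334 ± 41.4 in MJ and 117 ± 20.6 in HuT-78. HERC5, the ligase that attaches ISG15, was at 56.2 ± 16.03 in MY-LA, against 5709 ± 773 in HuT-102, 1129.8 ± 68.8 in MJ and 817 ± 101.3 in HuT-78. USP18, which removes it, was at 12.4 ± 4.42 in MY-LA, against 3419 ± 684 in HuT-102, 148 ± 42.0 in MJ and 517 ± 146 in HuT-78. EPSTI1 was at 54.6 ± 7.29 in MY-LA, against 9437 ± 1428 in HuT-102, 6766 ± 187 in MJ and 387 ± 7.68 in HuT-78. IFI6 was at 69.3 ± 17.1 in MY-LA, against 13434 ± 1073 in HuT-102, 1339 ± 45.2 in MJ and 929 ± 29.6 in HuT-78. XAF1, an antagonist of the apoptosis inhibitor XIAP, had 7.32 ± 7.49 in MY-LA, against 6828 ± 524 in HuT-102, 329.6 ± 38.9 in MJ and 4802 ± 332 in HuT-78. All of these were below each line, and HuT-102 was the highest line in each.

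Among the 20 largest negative differences were 3 more genes tied to interferon, low by the way they were chosen. EIF2AK2, the RNA-activated kinase PKR, had signals of 16.2, 7.12, 19.8 and 17.4 in the 4 MY-LA arrays, against 9004, 8514, 8239 and 8910 in HuT-102, 3602, 3395, 3437 and 3505 in MJ and 1622, 1925, 1857 and 1578 in HuT-78 (largest adjusted p = 1.97e-20). DTX3L, a ubiquitin ligase induced by interferon, was at 5.66 ± 2.08 in MY-LA, against 4755 ± 201 in HuT-102, 1370.3 ± 90.6 in MJ and 2755 ± 109.7 in HuT-78. IRF2, a factor that binds the same element, was at 3.24 ± 1.94 in MY-LA, against 2159 ± 149.7 in HuT-102, 1171 ± 128 in MJ and 1437 ± 104 in HuT-78. In these 3 genes no MY-LA array reached the background limit. Not all members were low. MX2, a relative of MX1 that restricts HIV, was at 3104 in MY-LA, against 4675 in HuT-102, 206 in MJ and 205 in HuT-78, below HuT-102 and above MJ and HuT-78. IFITM2 was at 9472 in MY-LA, against 253 in HuT-102, 10508 in MJ and 19934 in HuT-78. IFITM3 was at 9493 in MY-LA, against 543 in HuT-102, 8640.1 in MJ and 15639.6 in HuT-78. HuT-102 was the low line in both, and these 2 genes are near-identical copies. MX2, IFITM2 and IFITM3 lie outside the naming rule and were named after their values were seen.

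Promoter sequence was set beside this group. The letters GAAANNGAAA, a core of the interferon-stimulated response element, were searched on both strands of the same RefSeq promoters. They stood in 8 of 12 promoters of list members below each line and in 10 of 13 of the other tested members. Among all genes below each line by at least 1 on the log2 scale, 7.27% of 509 promoters held it, beside 2.56% of 469 for genes above each line and 2.89% of 10990 for genes tested. Shown are the stretches around the matches in 4 genes at background in MY-LA, IFIT5 at chr10:89414513-89414583 and DTX3L at chr3:122564322-122564351 on the plus strand and EPSTI1 at chr13:42992272-42992301 and EIF2AK2 at chr2:37156967-37156996 on the minus strand, 5′ to 3′ along each gene, with the match in capitals. On the opposite strand the motif reads TTTCNNTTTC.
IFIT5: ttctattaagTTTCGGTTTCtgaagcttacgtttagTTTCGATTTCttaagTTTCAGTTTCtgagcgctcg
DTX3L: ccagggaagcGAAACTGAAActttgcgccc
EPSTI1: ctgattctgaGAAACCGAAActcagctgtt
EIF2AK2: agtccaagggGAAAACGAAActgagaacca
IFIT5 held 3 matches on the opposite strand, and the other 3 genes held 1 each.

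**Figure D4:**
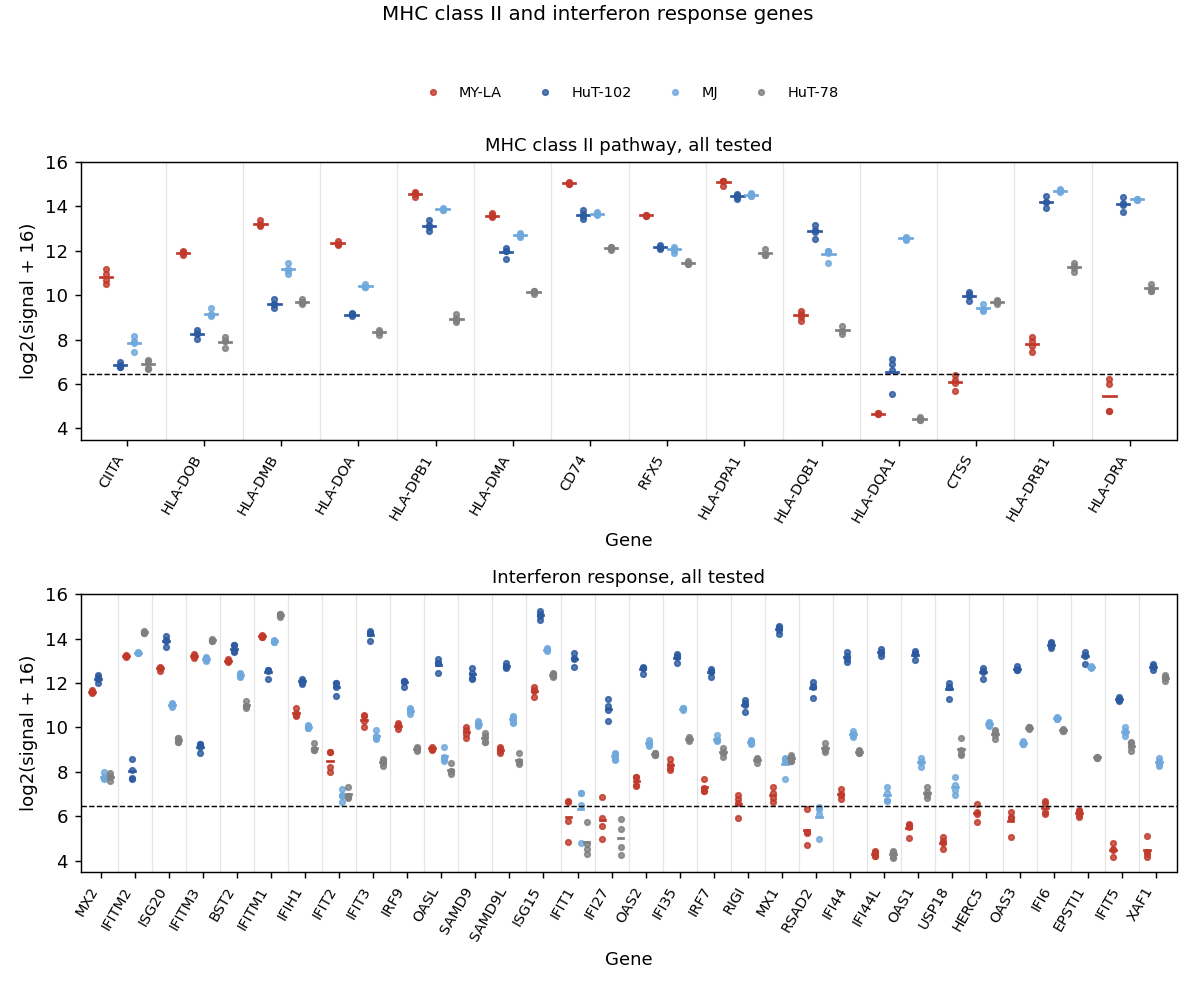
Log2(signal + 16) of all tested MHC class II (upper) and interferon response (lower) genes, ordered by the difference of MY-LA from the mean of the other lines, with a point for each array, the mean of each line as a bar and the filter threshold as a dashed line (log2 6.46). CIITA, HLA-DM, HLA-DO and HLA-DP genes are highest in MY-LA while HLA-DRA and HLA-DRB1 are lowest there, and the interferon genes at the right lie near background in MY-LA.

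Of 25 immediate early genes and feedback inhibitors of the ERK pathway tested, 16 were lower and 8 higher (64% and 32%, beside 38.0% and 32.5% of all genes), and 10 were below each line (beside 15.2%). However, 11 of the 25 passed the filter through other lines alone. The median difference was -1.50 from the mean and -0.44 from HuT-78. EGR1, an early growth response factor, had signals of 54.4, 44.7, 2.22 and 53.8 in the 4 MY-LA arrays, against 7708, 7509, 7352 and 6611 in HuT-102, 6038, 4584, 5292 and 5259 in MJ and 222, 244, 225 and 184 in HuT-78. The MY-LA arrays were near background and below the 12 others (largest adjusted p = 3.31e-07). DUSP1, a phosphatase that switches off MAP kinases, was at 11.7 ± 10.6 in MY-LA, against 13691 ± 535 in HuT-102, 1537 ± 94.0 in MJ and 403 ± 59.7 in HuT-78 on the probe set used, but 1 of its 3 probe sets did not pass the test. DUSP2 was below each line, with log2 differences of -4.60 against HuT-102, -5.06 against MJ and -0.97 against HuT-78, and SPRED2, an inhibitor of RAS signalling, with -3.18 against HuT-102, -2.74 against MJ and -3.99 against HuT-78. FOS was at 10.4 ± 1.93 in MY-LA, against 231 ± 43.7 in HuT-102, 274 ± 70.7 in MJ and 78.7 ± 40.4 in HuT-78. MAFF was at 9.81 ± 5.3 in MY-LA, against 168 ± 31.9 in HuT-102, 828 ± 31.2 in MJ and 1243 ± 72.3 in HuT-78. DUSP5, the nuclear ERK phosphatase, ran against its family, above each line by 1.60 against HuT-102, 2.40 against MJ and 3.49 against HuT-78 (largest adjusted p = 3.13e-11).

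In the JAK-STAT list 12 of 26 were higher and 8 lower (46.2% and 30.8%, beside 32.5% and 38.0% of all genes). The counts against HuT-78 were 14 higher and 4 lower (beside 33.6% and 37.0% of all genes). TYK2, a Janus kinase, was above each line, at 11043 ± 572 in MY-LA, against 3913 ± 50.3 in HuT-102, 2062 ± 90.9 in MJ and 1252 ± 124 in HuT-78. The log2 differences were 1.49 against HuT-102, 2.41 against MJ and 3.13 against HuT-78 (largest adjusted p = 3.65e-14). PTPN6 (SHP-1), a phosphatase that restrains receptor signalling, was above each line by 2.44 against HuT-102, 1.198 against MJ and 1.18 against HuT-78. CISH, a STAT5 target, was above each line by 0.56 against HuT-102, 2.16 against MJ and 1.61 against HuT-78, and the kinase PIM2 by 1.57 against HuT-102, 0.96 against MJ and 1.51 against HuT-78. In the NF-kB list, MAP3K14 (NIK), the kinase of the noncanonical route, was above each line by 1.05 against HuT-102, 1.60 against MJ and 2.11 against HuT-78. TNFAIP3 (A20), an NF-kB inhibitor, was below each line, with log2 differences of -1.02 against HuT-102, -2.17 against MJ and -0.58 against HuT-78 (largest adjusted p = 1.03e-07). BCL2A1, an NF-kB target that protects from apoptosis, was at 27.3 ± 17.2 in MY-LA, against 489 ± 60.7 in HuT-102, 1621 ± 199 in MJ and 173 ± 27.6 in HuT-78.

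Of 27 apoptosis genes tested, 11 were higher and 14 lower (40.7% and 51.9%, beside 32.5% and 38.0% of all genes). Below each line were 8 (beside 15.2% of all genes). The counts against HuT-78 were 9 higher and 15 lower (beside 33.6% and 37.0% of all genes). The inflammatory caspase CASP1 was near background in MY-LA, at 52.9 ± 25.4 in MY-LA, against 2256 ± 266 in HuT-102, 1015 ± 40.0 in MJ and 2289 ± 228 in HuT-78, and its relative CASP4 was below each line, with log2 differences of -2.10 against HuT-102, -2.16 against MJ and -1.66 against HuT-78. GSDMD, the pore-forming substrate of both, was below each line, with log2 differences of -2.93 against HuT-102, -2.12 against MJ and -1.89 against HuT-78 (largest adjusted p = 4.45e-12). BCL2 was below each line, with log2 differences of -2.98 against HuT-102, -3.00 against MJ and -1.08 against HuT-78. PMAIP1 (NOXA), a BH3-only protein, was above each line, at 25495 ± 2384 in MY-LA, against 17274 ± 2334 in HuT-102, 15973 ± 998 in MJ and 1914 ± 362 in HuT-78, though by far the most against HuT-78.

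Of 20 p53 targets tested, 14 were higher and 3 lower (70% and 15%, beside 32.5% and 38.0% of all genes), with a median of 0.70. The difference was mainly one from HuT-78. The median was 2.04 against HuT-78, beside -0.06 against HuT-102 and 0.18 against MJ. CCNG1, cyclin G1, was above each line by 1.19 against HuT-102, 0.89 against MJ and 2.35 against HuT-78, and DDB2, a DNA damage recognition protein, by 0.49 against HuT-102, 0.84 against MJ and 2.19 against HuT-78. PHLDA3 was at 131 in MY-LA, against 891 in HuT-102, 962 in MJ and 94.7 in HuT-78, low in MY-LA and in HuT-78.

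Of 30 cell cycle genes, 8 were higher and 15 lower (26.7% and 50%, beside 32.5% and 38.0% of all genes), and again the lines disagreed. There were 15 higher and 7 lower against HuT-102 (beside 32.9% and 32.8%) but 4 higher and 20 lower against HuT-78 (beside 33.6% and 37.0%). CCNE2, cyclin E2, was below each line, with log2 differences of -2.18 against HuT-102, -2.29 against MJ and -3.43 against HuT-78 (largest adjusted p = 1.48e-14). So was the helicase subunit MCM7, with -1.36 against HuT-102, -1.36 against MJ and -1.92 against HuT-78. RRM2, a subunit of ribonucleotide reductase, was below each line with -0.67 against HuT-102, -0.78 against MJ and -1.22 against HuT-78. The mitotic kinase AURKA was above each line by 1.11 against HuT-102, 1.03 against MJ and 0.53 against HuT-78. CDKN2A, the tumour suppressor locus of p16, was near background in MY-LA and HuT-78, at 41.0 in MY-LA, against 698 in HuT-102, 1569 in MJ and 56.1 in HuT-78. CDKN1B (p27) was above each line by 0.68 against HuT-102, 0.40 against MJ and 1.75 against HuT-78.

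Mitochondrial respiration genes showed small differences, mainly in 1 direction. Of 31 subunits tested, 24 were higher and 1 lower (77.4% and 3.23%, beside 32.5% and 38.0% of all genes), with a median of 0.35. Above each line were 13 (beside 14.4% of all genes). By line, 22 were higher than in HuT-102, 20 than in MJ and 23 than in HuT-78. Over all genes these shares were 32.9%, 27.8% and 33.6%. After quantile normalization, 23 were higher and 3 lower than the mean of the other lines, with a median of 0.29. NDUFA1, of complex I, was at 21208 ± 2466 in MY-LA, against 11862 ± 1507 in HuT-102, 10321 ± 688 in MJ and 11932 ± 875 in HuT-78. This was above each line by 0.84 against HuT-102, 1.03 against MJ and 0.82 against HuT-78 (largest adjusted p = 6.08e-08). CYC1, cytochrome c1 of complex III, was above each line by 0.97 against HuT-102, 0.76 against MJ and 0.66 against HuT-78. The summed signal of the listed subunits was 398278 to 507341 in MY-LA arrays, against 358104 to 397184 in HuT-102, 370393 to 379202 in MJ and 336811 to 369097 in HuT-78. Ribosomal protein genes differed less, 9 of 21 higher and 1 lower (42.9% and 4.76%, beside 32.5% and 38.0% of all genes), with a median of 0.11.

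Genes of hypoxia and glycolysis were mixed. NDRG1, a hypoxia target, was below each line, at 90.6 ± 19.499 in MY-LA, against 6039 ± 397 in HuT-102, 2190.3 ± 223 in MJ and 644 ± 35.5 in HuT-78, with -5.84 against HuT-102, -4.38 against MJ and -2.65 against HuT-78 (largest adjusted p = 1.29e-14). EPAS1 (HIF-2 alpha) was below each line, with log2 differences of -4.41 against HuT-102, -2.23 against MJ and -2.35 against HuT-78, whereas HIF1A was above each line by 1.08 against HuT-102, 1.29 against MJ and 1.69 against HuT-78. EGLN3, the oxygen sensor that marks HIF for decay, was at 1153 ± 82.4 in MY-LA, against 49.1 ± 12.8 in HuT-102, 33.2 ± 22.8 in MJ and 318 ± 29.9 in HuT-78. PFKM, the muscle form of phosphofructokinase, was below each line, with log2 differences of -2.69 against HuT-102, -1.86 against MJ and -2.89 against HuT-78. The aldolase ALDOC was above each line by 1.42 against HuT-102, 2.48 against MJ and 1.07 against HuT-78. In the lipid list, ELOVL6, a fatty acid elongase, was near background in MY-LA only, at 20.8 ± 6.22 in MY-LA, against 594 ± 139 in HuT-102, 415 ± 57.6 in MJ and 1694 ± 307 in HuT-78. STARD4, a sterol carrier, was above each line by 0.91 against HuT-102, 1.41 against MJ and 4.13 against HuT-78. HMGCS1, of cholesterol synthesis, was below each line, with log2 differences of -1.41 against HuT-102, -1.20 against MJ and -1.50 against HuT-78.

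Targets of NRF2 and of the aryl hydrocarbon receptor did not move as 1 group, with 9 higher and 11 lower of 24. These were 37.5% and 45.8%, beside 32.5% and 38.0% of all genes. The counts against HuT-78 were 16 higher and 6 lower (beside 33.6% and 37.0% of all genes). NQO1, a quinone reductase, was above each line, at 7706 ± 897 in MY-LA, against 1646 ± 144 in HuT-102, 1592 ± 20.4 in MJ and 1395 ± 66.4 in HuT-78, by 2.21 against HuT-102, 2.26 against MJ and 2.45 against HuT-78 (largest adjusted p = 7.83e-16). SRXN1, sulfiredoxin, which restores oxidised peroxiredoxins, was above each line by 1.70 against HuT-102, 1.02 against MJ and 1.83 against HuT-78. The P450 genes CYP1A1 and CYP1B1 were above each line. CYP1A1 was at 1282 ± 196 in MY-LA, against 27.8 ± 21.8 in HuT-102, 219 ± 28.9 in MJ and 149 ± 16.6 in HuT-78. CYP1B1 was at 6526 ± 882 in MY-LA, against 4236 ± 208 in HuT-102, 695 ± 72.1 in MJ and 11.3 ± 12.2 in HuT-78. GSTP1, a glutathione transferase, was below each line, with log2 differences of -4.50 against HuT-102, -5.98 against MJ and -0.998 against HuT-78 (largest adjusted p = 1.7e-07).

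Of 29 genes recurrently mutated or deleted in CTCL, 17 were lower and 7 higher (58.6% and 24.1%, beside 38.0% and 32.5% of all genes), with 10 below each line (beside 15.2%). Against HuT-78, 8 were higher and 16 lower (beside 33.6% and 37.0% of all genes). PRKCB, a protein kinase C, was near background in MY-LA only, at 38.0 ± 15.9 in MY-LA, against 1244 ± 47.1 in HuT-102, 1595 ± 78.7 in MJ and 1356 ± 62.7 in HuT-78, and all 6 probe sets were called lower. PLCG1, the phospholipase of T cell receptor signalling, was below each line, with log2 differences of -1.79 against HuT-102, -1.68 against MJ and -2.52 against HuT-78, and ARID1A, a subunit of the SWI/SNF remodeller, with -1.75 against HuT-102, -1.57 against MJ and -1.94 against HuT-78. Among epigenetic regulators SMARCA2, an ATPase of SWI/SNF, was below each line, with log2 differences of -3.20 against HuT-102, -3.17 against MJ and -2.31 against HuT-78 (largest adjusted p = 1.72e-16). The Polycomb protein CBX7 was above each line by 3.40 against HuT-102, 0.70 against MJ and 1.79 against HuT-78. Of the genes used as CTCL markers, DPP4 (CD26), usually lost on Sézary cells, was above each line by 3.07 against HuT-102, 3.63 against MJ and 3.22 against HuT-78 (largest adjusted p = 2.92e-12). GTSF1, a germ line gene found in CTCL, was at 7591 in MY-LA, against 44.7 in HuT-102, 101.97 in MJ and 10740 in HuT-78, high in MY-LA and HuT-78. NEDD4L was at 23.9 in MY-LA, against 119.5 in HuT-102, 738 in MJ and 421 in HuT-78.

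Germ line and homeobox genes differed in both directions. Of 13 germ line (cancer testis) genes tested, 6 were higher and 4 lower (46.2% and 30.8%, beside 32.5% and 38.0% of all genes). Against HuT-78, 4 were higher and 5 lower (beside 33.6% and 37.0%). Of the 31 with a probe set, 22 were near background in MY-LA. Of 17 HOX genes tested, 9 were higher and 4 lower (52.9% and 23.5%), and against HuT-78 these counts were 6 and 4. PRAME, a melanoma antigen, was at 2230 ± 150.2 in MY-LA, against 61.0 ± 12.6 in HuT-102, 28.4 ± 24.7 in MJ and 26.96 ± 18.8 in HuT-78. MAGEB2 was at 515 ± 38.3 in MY-LA, against 30.5 ± 14.4 in HuT-102, 54.3 ± 7.61 in MJ and 31.9 ± 8.43 in HuT-78. Both genes were above each line (largest adjusted p = 1.62e-10 and 1.56e-09). MAGED1, an X-linked member expressed in normal tissue, was instead below each line, with log2 differences of -4.12 against HuT-102, -4.63 against MJ and -4.84 against HuT-78. The summed signal of the cancer testis list was 11487 to 13091 in MY-LA, and HuT-78 was the highest line, at 17218 to 18344. HOXB7 was at 2428 ± 149 in MY-LA, against 57.9 ± 10.5 in HuT-102, 55.0 ± 12.03 in MJ and 1681 ± 48.2 in HuT-78, near background in HuT-102 and MJ. HOXC4 was at 1240 ± 123 in MY-LA, against 66.1 ± 41.6 in HuT-102, 589 ± 49.4 in MJ and 268 ± 35.7 in HuT-78, and HOXC6 was above each line by 3.42 against HuT-102, 1.15 against MJ and 1.10 against HuT-78. The miR-155 targets of the list showed no common direction, 17 higher and 14 lower of 36 (47.2% and 38.9%, beside 32.5% and 38.0% of all genes). The counts against HuT-78 were 14 higher and 19 lower (beside 33.6% and 37.0% of all genes). Of the listed targets, KDM3A, a histone demethylase, was above each line by 1.55 against HuT-102, 1.502 against MJ and 1.12 against HuT-78. PELI1, a ubiquitin ligase, was below each line, with log2 differences of -2.90 against HuT-102, -3.09 against MJ and -0.99 against HuT-78.

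**Figure D5:**
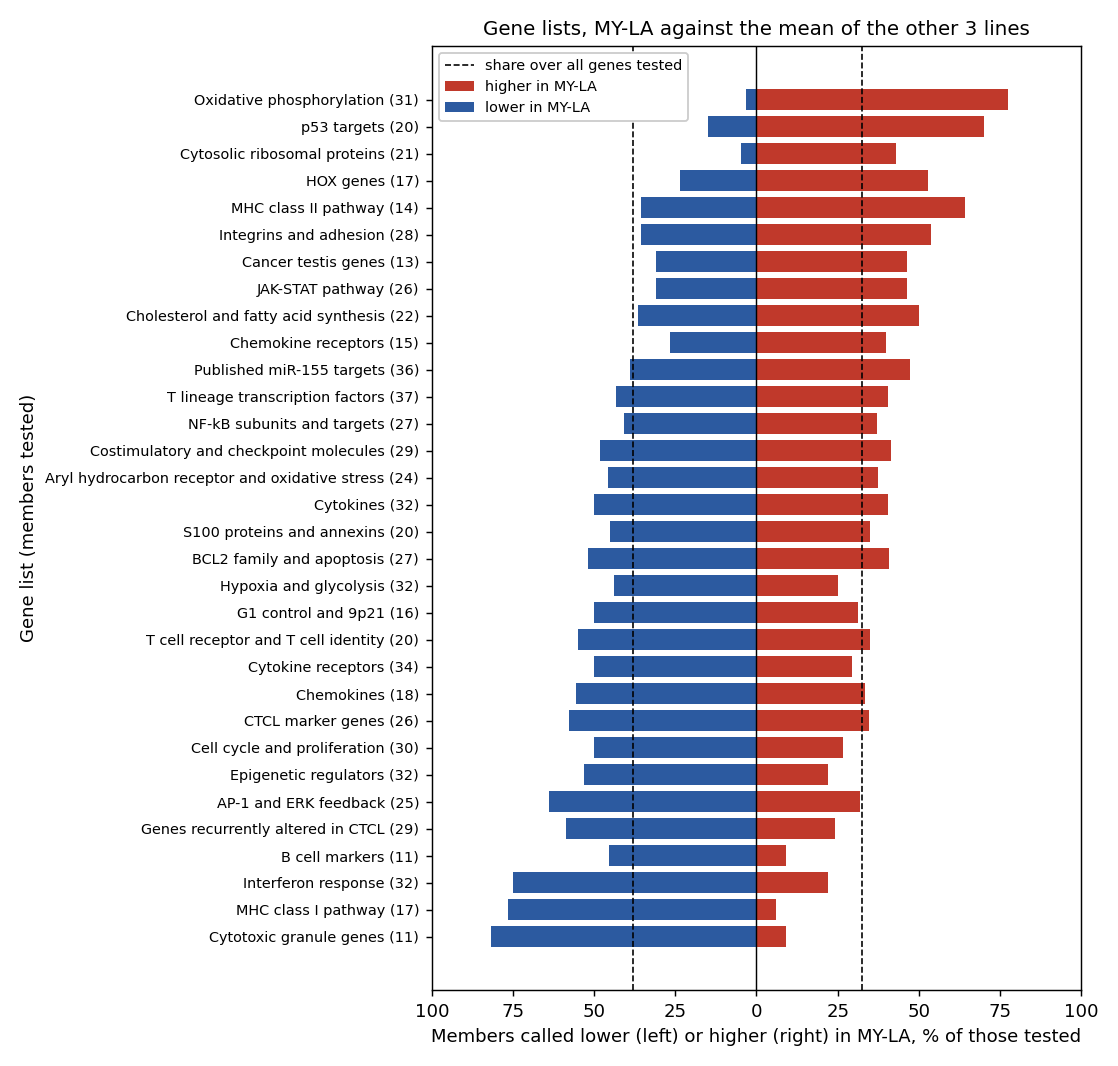
Share of the tested members of each gene list called lower (left bars) or higher (right bars) in MY-LA against the mean of the other 3 lines, for lists with 10 or more members tested. Dashed lines mark the shares over all 13667 genes, 38.0% lower and 32.5% higher, and oxidative phosphorylation, p53 targets, interferon response, MHC class I and cytotoxic granule genes lie furthest from them.

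The largest differences from a single line often belonged to that line. Against HuT-102, G0S2, at 43.1 in MY-LA, against 27224 in HuT-102, 17.7 in MJ and 19.96 in HuT-78, was a HuT-102 transcript. Against MJ, PGM5, at 12.4 in MY-LA, against 5.84 in HuT-102, 10324 in MJ and 9.87 in HuT-78, was one of MJ. Against HuT-78, BCAT1, the branched-chain aminotransferase, at 19919 in MY-LA, against 13619 in HuT-102, 10289.5 in MJ and 14.01 in HuT-78, was near background in HuT-78 alone, and GNLY (granulysin), at 39.5 in MY-LA, against 62.1 in HuT-102, 35.8 in MJ and 12223 in HuT-78, was high there alone. Against HuT-102 the largest negative differences also included the carbonic anhydrase CA2, at 2.29 in MY-LA, against 12919 in HuT-102, 1594 in MJ and 2.43 in HuT-78. SNX7, a sorting nexin, at 11429.9 in MY-LA, against 2603 in HuT-102, 2062 in MJ and 6.99 in HuT-78, was above each line as well as among the 8 largest against HuT-78.

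The genes far from each line at day 8 were looked up in the day 4 arrays of the same lines, where HuT-78 was not analysed here. At day 4, 4289 of 13213 genes were higher in MY-LA than the mean of HuT-102 and MJ (32.5%) and 4745 lower (35.9%), while 21.9% were above both lines and 22.2% below both. Of the 612 genes above each line by at least 1 at day 8, 599 were tested at day 4 and 585 (97.7%) were above both lines. Of the 638 below each line, 629 were tested and 583 (92.7%) were below both. These shares describe the same 3 lines on separate arrays, and the genes had been chosen on HuT-102 and MJ at day 8. CSTA at day 4 was at 20679.6 in MY-LA, against 12.8 in HuT-102 and 219 in MJ. LCK was at 14.7 in MY-LA, against 3203 in HuT-102 and 7347 in MJ. PRDX2 had 14.6 in MY-LA, against 9972 in HuT-102 and 15929 in MJ. These were the sides seen at day 8. HLA-DRA was at 10.1 in MY-LA, against 17369 in HuT-102 and 21219 in MJ. The signal of CIITA was 2371 in MY-LA, against 133 in HuT-102 and 259 in MJ. IFNG had 29.0 in MY-LA, against 4796 in HuT-102 and 1662 in MJ, and IFIT5 had 4.96 in MY-LA, against 1206 in HuT-102 and 793 in MJ. Each of these 7 genes stood on the same side at both days.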

How the data were processed

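The deposited values are probe set signal intensity on a linear scale, made by the authors with MAS5 per the submitters' processing notes, and all arrays had been scaled to a trimmed mean of 500.1 (2% removed at each end). Genome build and probe annotation are not given in the sources used here. Of 54675 probe sets, 62 were controls, 41091 had 1 symbol in the platform annotation, 1801 several and 11721 none, and those with several or none were left out. Of the 41091, 41037 matched RefSeq by Entrez ID. Each of 19775 genes was represented by its brightest probe set (mean of the 16 arrays). Intensity was analysed as log2(signal + 16), and genes whose mean reached log2 6.46 (signal 72.1, the median) in any line were tested.

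Group means of the 16 arrays were fitted in limma 3.58.1 (R 4.3.3; 12 residual degrees of freedom, median prior degrees of freedom 7.39, variance trend) with contrasts of MY-LA against the mean of the 3 group means and against each line. All p-values are two-sided and were adjusted by Benjamini-Hochberg over every tested gene (threshold 0.05). Day 4 arrays were fitted alike. The labels state neither replicate numbers nor separate cultures. The number of arrays, 4 per line, limits the precision. On simulated data of the comparison with the mean (12475 genes tested), 100 changes of each size were seeded. Of those tested, 65.7% of log2 0.5 and 92% of log2 1 were recovered, 0 with the wrong sign. In the same data 7 unchanged genes were called. In the arrays themselves 9637 of 13667 genes were called, and recovery with so many changes was not tested.

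The comparison and the 37 gene lists were chosen with earlier results of these data known. Named genes were up to 20 with the largest difference in each direction called the same way against each line with arrays that did not overlap, up to 8 called members per list, up to 8 called genes per direction against each single line, and all T cell identity genes. The text names a choice of these, made with their values in view. Results were recomputed with 1 or 64 in place of the 16 added to the signal, without the filter, with the filter on the mean of the 16 arrays, or with its threshold raised to the 75th percentile. They were also recomputed after quantile normalization, with each probe set tested alone, with all 56 arrays in 1 model, without the variance trend, without each array or line, and at day 4. Promoters are RefSeq sequences of GRCh38.p14, and motifs were chosen after the values were seen. Python 3.11.15, NumPy 2.4.6, pandas 2.3.3 and Matplotlib 3.10.9 were used for tables and drawing.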

Additional observations from a re-analysis of the deposited data

Results flagged for a closer look

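In each line's 4 untreated day 8 arrays, a named gene was singled out where the gap of the highest or lowest array to the nearest of the others, on the log2(signal + 16) scale, was a larger share of the whole range than Dixon's critical value for 4 values at 95%. This was so in 39 of 836 sets of 4 arrays (4.67%), where chance gives about 1 in 20. In MY-LA, 1 array was above its group for UBASH3A at 824 (the others at 719 to 731) and TIGIT at 8294 (the others at 7001 to 7164). In MY-LA, 1 array was below its group for FCER2 at 2781 (the others at 3143 to 3175), CD6 at 87.0 (the others at 147 to 161), POSTN at 238 (the others at 312 to 323), HLA-DPA1 at 30479 (the others at 35893 to 36282) and ZNF211 at 136 (the others at 159 to 162). In HuT-102, 1 array was above its group for IFNG at 6326 (the others at 4994 to 5136), ERAP2 at 406 (the others at 319 to 325), HIF1A at 5702 (the others at 5371 to 5420.2) and PRKCB at 1314 (the others at 1218 to 1225). In HuT-102, 1 array was below its group for GLUL at 975 (the others at 2119.7 to 2189), NREP at 5985 (the others at 7105 to 7349), ARMCX6 at 3314 (the others at 3646 to 3692), CD3E at 115 (the others at 180.2 to 189), ID3 at 271 (the others at 452 to 482), CD96 at 204 (the others at 273 to 288), NEDD4L at 83.4 (the others at 131 to 132), HOXC6 at 54.6 (the others at 95.5 to 99.7) and CA2 at 10783 (the others at 13407 to 13843). In MJ, 1 array was above its group for CXCL13 at 2487 (the others at 1881 to 1954), ENTPD1 at 2724 (the others at 2420.5 to 2443), VCAM1 at 2413 (the others at 2052 to 2071), HLA-DOA at 1416 (the others at 1312 to 1324), CISH at 2404 (the others at 2100.4 to 2149) and PRKCB at 1713 (the others at 1552 to 1562). In MJ, 1 array was below its group for CD2 at 6262 (the others at 7130.1 to 7246), IL12RB2 at 3618 (the others at 4213 to 4284) and HLA-DQB1 at 2758 (the others at 3840.4 to 4088). In HuT-78, 1 array was above its group for VAMP8 at 6007 (the others at 5351 to 5451), CD3D at 18470 (the others at 17089 to 17315), ID3 at 4456 (the others at 4013 to 4050.4), GZMM at 1064 (the others at 968 to 982), HLA-DPA1 at 4327 (the others at 3567 to 3638), GTSF1 at 11590 (the others at 10406 to 10491) and ZNF776 at 1198 (the others at 1177 to 1178). In HuT-78, 1 array was below its group for ZIC2 at 46.5 (the others at 74.1 to 80.3), DNAJC5B at 19.1 (the others at 89.9 to 112) and RORA at 354 (the others at 413 to 419). No gene listed here lost its call against the mean when an array was left out.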

How the results depend on the processing

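The number of genes called against the mean of the other lines was 9637, and under the alternatives with 1 probe set per gene it lay within 1.5 times of that. Testing every probe set on its own, which raised the number tested from 13667 to 26512, gave 18140 calls against the mean, 16698 against HuT-102, 16063 against MJ, 18236 against HuT-78 and 7339 on 1 side of each line. Leaving out each array in turn gave 9237 to 9639 calls against the mean, 8688 to 9025 against HuT-102, 8329 to 8684 against MJ, 9353 to 9671 against HuT-78, 3882 to 4041 on 1 side of each line and 8614 to 9015 at day 4. Quantile normalization moved the median difference against the mean from -0.06 to 0.00 and the share of calls that were higher from 46.1% to 49.6%. Of 209 named genes, none changed its call against the mean when an array was left out or under the settings that changed the scale, filter, model or normalization with 1 probe set per gene, wherever it was still tested. Leaving a line out of the mean reversed 8 of them: without HuT-102, ZAP70 was at -0.016, ITGAM at -0.052, SIT1 at -0.28, IFITM2 at -0.61, IFITM3 at -0.29 and G0S2 at 0.83, without MJ PGM5 was at 0.22, and without HuT-78 CD247 was at 0.067. G0S2 and PGM5 were near background in all lines left, so that their values depend on the 16 added to the signal. Calls were lost for CD3D (0.14) without HuT-102, for ZAP70 (0.14), LCP2 (-0.11) and UBASH3A (0.08) without MJ, and for LCP2 (-0.10), CD7 and GNLY without HuT-78, where the last 2 were near background in all lines left. Calls were gained for CD3G (-0.40) without HuT-102 and for PTPRC, at 0.96 without HuT-102, -1.09 without MJ and 0.22 without HuT-78. Signals near background have no reliable order, and 11142 of the 13667 genes tested were above it in MY-LA. No paired analysis was possible because the labels give no replicate numbers, and the numbers used here follow the order of the samples.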

Other observations

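Many zinc finger genes were low in MY-LA. Many such genes encode DNA-binding repressors with a KRAB domain that recruits the corepressor TRIM28, and many sit in clusters on chromosome 19. Of 389 tested genes with ZNF symbols, 65 were below each of the other lines by at least 1 on the log2 scale (16.7%, beside 4.32% of the other 13278 genes) and 6 were above each line (1.54%, beside 4.56%). Their median difference from the mean of the lines was -0.52, and with quantile normalization it was -0.40 with 59 genes below and 6 above each line. A total of 141 of them were near background in MY-LA, against 89 in HuT-102, 39 in MJ and 37 in HuT-78. Those near background in MY-LA were tested only because another line was high, so that part of the low share was built in. The family was picked after the values were seen, so no test is given.

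Low genes also stood side by side. Tested genes were placed in their order along GRCh38.p14, and windows of 12 neighbours were counted. Of all windows, which overlap, 1 held 10 genes below each line by at least 1 on the log2 scale, 2 held 9, 4 held 8 and 11 held 7, while the highest count of genes above each line was 6, in 5 windows. The window with 10 was on chromosome 19 and held only zinc finger genes. ZNF776 was at 12.3 in MY-LA, against 924 in HuT-102, 836 in MJ and 1183 in HuT-78, ZNF586 at 13.9 in MY-LA, against 605 in HuT-102, 602 in MJ and 804 in HuT-78 and ZNF550 at 23.8 in MY-LA, against 397 in HuT-102, 436 in MJ and 1101 in HuT-78. Of the 2 probe sets of ZNF776, only 1 was called lower, and the other differed by 0.013 from the mean of the other lines. ZNF419 was at 181 ± 28.9 in MY-LA, against 596 ± 105 in HuT-102, 708 ± 27.8 in MJ and 849 ± 59.8 in HuT-78 and ZNF211 at 155 ± 12.5 in MY-LA, against 444 ± 20.7 in HuT-102, 512 ± 59.9 in MJ and 615 ± 37.9 in HuT-78, lower in MY-LA but above background. The others below each line were ZNF416, ZNF530, ZNF134, ZNF551 and ZNF671, and ZIK1 and ZNF154 were not. For ZNF551, 3 of its 4 probe sets were called lower than the mean.

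A group of genes on the X chromosome had means near background in MY-LA. Of 16 tested ARMCX, BEX, TCEAL and GPRASP genes there, 16 were under the filter threshold in MY-LA, against 4 in HuT-102, 7 in MJ and 6 in HuT-78. ARMCX4, whose MY-LA arrays reached up to 87.7, was not called against any line. Called below each line were 9 (beside 15.2% of all genes). Some of these calls compared groups that were both near background, as for BEX3 against HuT-78. GPRASP3 against MJ was another, at 15.4 in MY-LA and 36.4 in MJ. Since the 16 genes passed the filter only through other lines, some difference was built in. ARMCX3, a mitochondrial outer membrane protein, was at 11.9 in MY-LA, against 2139 in HuT-102, 1791 in MJ and 791 in HuT-78. BEX3 was at 16.8 in MY-LA, against 8746 in HuT-102, 10905 in MJ and 31.3 in HuT-78 and TCEAL4 at 2.42 in MY-LA, against 2946 in HuT-102, 63.8 in MJ and 1144 in HuT-78. ARMCX6 was at 39.8 in MY-LA, against 3585 in HuT-102, 4283 in MJ and 3334 in HuT-78 and TCEAL8 at 7.5 in MY-LA, against 1408 in HuT-102, 1692 in MJ and 1464 in HuT-78, near background in MY-LA only. Both sets of genes were chosen after their values were seen, and the cause of the low signals was not tested.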
